A study of Mus musculus with 2 samples.

Results

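The Mir34 and Mir449 genes encode a family of microRNAs that share a seed, the stretch of the mature strand that pairs with target messenger RNAs. All 6 mouse genes of the family, Mir34a, Mir34b, Mir34c, Mir449a, Mir449b and Mir449c, were taken by their GENCODE symbols from the 1973 miRNA genes counted in the embryonic facial prominence, and all 6 were listed in both libraries. The facial prominences grow from mesenchyme of neural crest origin under a sheet of epithelium and later form the face and jaws. Small RNA was sequenced from tissue of B6NCrl mouse embryos at embryonic day 12.5, healthy and of both sexes pooled, in 2 biological replicates of 1 group. Replicate 1 pooled 120 embryos and replicate 2 pooled 88. The labels name no mutant, treatment or other stage, so the data describe levels in this tissue and the difference between these libraries.

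Mir34a is a direct transcriptional target of the tumour suppressor p53, and Mir34b and Mir34c, which are processed from a shared primary transcript, are further p53 targets. The miRNAs of the family lower the output of cell cycle and survival genes such as Cdk6, Ccnd1 and Bcl2. The Mir449 genes lie within Cdc20b and are known, with Mir34b and Mir34c, from multiciliated cells of airway, oviduct and brain ventricles, where the family acts on Notch signalling and on Ccp110 when many cilia form.

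The mature strands are shown because they define the family, and they show how far likeness extends past the seed. RefSeq sequences (GRCm38.p6) gave 9 mature strands for 5 of the 6 genes. Entries for the 5p strand of Mir34c and for Mir449b were not used here. The strands are written 5′ to 3′ with the seed, bases 2 to 8, in capitals, and the 4 strands of the 5′ arm come first.
miR-34a-5p: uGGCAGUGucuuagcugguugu
miR-34b-5p: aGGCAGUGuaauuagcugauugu
miR-449a-5p: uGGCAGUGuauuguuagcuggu
miR-449c-5p: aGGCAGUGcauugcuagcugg
miR-34a-3p: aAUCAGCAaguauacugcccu
miR-34b-3p: aAUCACUAacuccacugccauc
miR-34c-3p: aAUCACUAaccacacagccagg
miR-449a-3p: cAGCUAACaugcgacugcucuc
miR-449c-3p: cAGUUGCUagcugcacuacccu

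The 4 strands of the 5′ arm shown here carried the same seed, GGCAGUG. Of the 1738 mature mouse strands compared, which leave out the entries named above, no others began with it at base 2. They fell into 2 kinds by their first base, which was U in miR-34a-5p and miR-449a-5p and A in miR-34b-5p and miR-449c-5p. Past the seed, miR-449a-5p and miR-449c-5p matched at 11 of 13 positions when aligned without gaps from the first base. Over the same stretch miR-34a-5p matched miR-449a-5p at 7 of 14 positions, and miR-34b-5p matched miR-449c-5p at 2 of 13. On the 3′ arm the seed was shared by a single pair, miR-34b-3p and miR-34c-3p, which matched at 17 of 22 positions in all. The other 3 strands of the 3′ arm had a seed found in no other entry.

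The family occupied 3 loci. On the build GRCm38, Mir34a (ENSMUSG00000065493.1) lay at chr4:150068454-150068555 on the plus strand, where its last 17 bases overlapped an exon of Gm37795, an unclassified transcript on the same strand. Mir34c (ENSMUSG00000065587.1) lay at chr9:51103034-51103110 and Mir34b (ENSMUSG00000065492.1) at chr9:51103562-51103645, both on the minus strand and 451 bases apart. Both lay opposite an intron of Btg4, an antiproliferation gene known from oocytes, and had no host gene on their own strand. The Mir449 genes lay on the plus strand of chromosome 13 in an intron of Cdc20b, with Mir449c (ENSMUSG00000076146.1, chr13:113035983-113036091) nearest to the start of that gene, 872 bases from it. Mir449b (ENSMUSG00000078027.1, chr13:113037419-113037498) followed 1327 bases on, and Mir449a (ENSMUSG00000065575.1, chr13:113037534-113037624) only 35 bases after that. No other gene counted in the tables overlapped a member on either strand.

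The libraries held 11414919 reads (replicate 1) and 12792420 reads (replicate 2), of which 4719337 and 5929220 fell on a miRNA gene in its own direction. Levels are given in CPM, which are own-strand counts per 1000000 such reads. Detected genes are those that reached 10 counts in each library, a minimum of 2.12 CPM in replicate 1 and 1.69 CPM in replicate 2. Of the marker lists, 5 of 5 mesenchymal genes were detected and held 6.26% ± 0.0166 of gene reads (SD, n = 2), and the endothelial gene Mir126a held 2.81% ± 0.127. All 3 blood genes (0.0549% ± 0.00852) and 6 of the 10 neural genes in the tables (0.119% ± 0.00513) were detected as well. Of the 10 neural genes 9, and of the 5 mesenchymal genes 3, shared a stretch of 20 bases with another counted miRNA gene. Reads with several mapping places are left out, so the counts of such genes may be lowered. These lists do not tell neural crest mesenchyme from other mesenchyme. Intervals in brackets are exact 95% intervals computed from the counts alone, so they cover counting error only and not the spread between replicates. No molecular identifiers were used here, so copies of the same molecule may be counted as separate reads.

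As counted, the family was a small part of the miRNA gene reads of the facial prominence, and Mir34c made up most of it. The 6 genes together had 4842 reads in replicate 1 and 7014 in replicate 2, which is 0.103% (exact Clopper-Pearson interval 0.0997 to 0.106) and 0.118% (0.116 to 0.121) of gene reads, with a mean of 0.110% ± 0.0111 (SD, n = 2). Summed over its members, the family would stand at place 96 among the 395 detected genes. Of the 6 genes, 4 were detected, and of all 1973 gene rows 395 were. Mir449b and Mir449c were the members below the minimum.

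Mir34c, the more abundant gene of the chromosome 9 pair, had 3434 counts in replicate 1 and 5081 in replicate 2. Its level was 728 CPM (exact Poisson interval 704 to 752) and 857 CPM (834 to 881), with a mean of 792 ± 91.4 CPM (SD, n = 2). It alone gave 70.9% of the family's reads in replicate 1 and 72.4% in replicate 2. Mir34b, its neighbour, had 110 and 189 counts. These came to 23.3 CPM (19.2 to 28.1) and 31.9 CPM (27.5 to 36.8), with a mean of 27.6 ± 6.06 CPM. In neither library did the values of Mir34b come near those of Mir34c.

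Mir34a, the p53 target on chromosome 4, had 436 counts in replicate 1 and 684 in replicate 2. Its level was 92.4 CPM (83.9 to 101.5) and 115.4 CPM (106.9 to 124), with a mean of 104 ± 16.2 CPM. It gave 9.0% of the family's reads in replicate 1 and 9.75% in replicate 2. Mir34a thus lay between the high and the low gene of the chromosome 9 pair in both libraries.

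Mir449a was the second gene of the family and the single Mir449 gene that was detected. It had 856 and 1053 counts, or 181 CPM (169 to 194) in replicate 1 and 178 CPM (167 to 189) in replicate 2, with a mean of 179 ± 2.68 CPM. Mir449c had 5 counts in each library, which is 1.06 CPM (0.344 to 2.47) and 0.843 CPM (0.274 to 1.97). Mir449b had 1 and 2 counts, which is 0.212 CPM (0.00536 to 1.18) and 0.337 CPM (0.0409 to 1.22). Mir449a so held nearly all of the 862 and 1060 reads of the locus in Cdc20b.

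**Figure D1:**
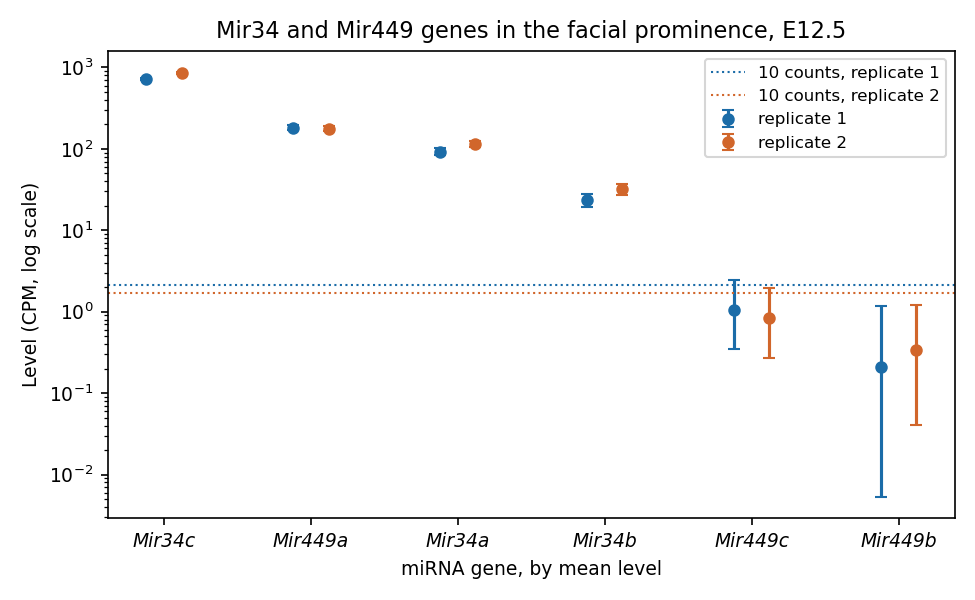
Level of each gene in CPM (log scale) in replicate 1 and replicate 2, with exact Poisson 95% intervals as bars and the level of 10 counts as dotted lines. Mir34c stood highest at 728 and 857 CPM, and Mir449c and Mir449b lay below the dotted lines in both libraries.

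The order of the levels was Mir34c, Mir449a, Mir34a, Mir34b, Mir449c and Mir449b in both libraries. TMM and DESeq2 factors could not change it, since each scales a whole library and both libraries had the same order. Reads of the other strand could hardly change it either, as the members had none except 1 for Mir34b in replicate 2. The order by mean was the same with counts divided by the length of the hairpin. A small RNA read covers a whole mature strand, so the levels themselves were not divided by length. Of the 15 pairs that the 6 genes form, 14 had a ratio whose counting interval lay above 1 in both libraries. The exception was the lowest neighbouring pair, Mir449c over Mir449b, with ratios of 5 (0.559 to 236) in replicate 1 and 2.50 (0.409 to 26.3) in replicate 2. These 2 genes could not be ordered at this depth.

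Among the better counted neighbours in that order, Mir34c exceeded Mir449a 4.01-fold (3.72 to 4.33) in replicate 1 and 4.83-fold (4.51 to 5.16) in replicate 2. Mir449a exceeded Mir34a 1.96-fold (1.75 to 2.21) and 1.54-fold (1.40 to 1.70), the narrowest step among the detected members. The difference of those means was 75.6 CPM. The SDs of both genes, combined as if independent although they come from the same libraries, gave 16.5 CPM. Mir34a exceeded Mir34b 3.96-fold (3.21 to 4.93) and 3.62-fold (3.08 to 4.27). With the coefficient of variation that edgeR fitted to all 395 detected genes, 0.190, in place of the spread of the single genes, the same 14 pairs differed by more than 2 errors.

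Against the other miRNA genes of the tissue, the 4 detected members were not among the leading genes, and Mir449b and Mir449c were not ranked. By mean CPM over the 395 detected genes, Mir34c stood at rank 107, Mir449a at 174, Mir34a at 208 and Mir34b at 264. The median detected gene stood at 122 CPM, so Mir34c and Mir449a lay above it and Mir34a and Mir34b below. These places depended on the genes compared. The percentiles of Mir34c, Mir449a, Mir34a and Mir34b were 73.2, 56.2, 47.6 and 33.4 among detected genes, 86.4, 77.8, 73.5 and 66.3 among the 781 genes with any count, and 61.7, 37.5, 25.3 and 5.05 among the 277 genes with at least 100 counts in both libraries. The rank of Mir34c was 114 in replicate 1 and 105 in replicate 2, and that of Mir34a was 216 and 200. Ranks leave out reads with several mapping places, which were 26.0% and 27.9% of all reads. The members had no stretch of 20 bases in common with another counted miRNA gene, and their longest shared stretch was the 14 bases that Mir449a shared with Mir679. Both searches were for identical bases, so they miss stretches that are alike with a mismatch.

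**Figure D2:**
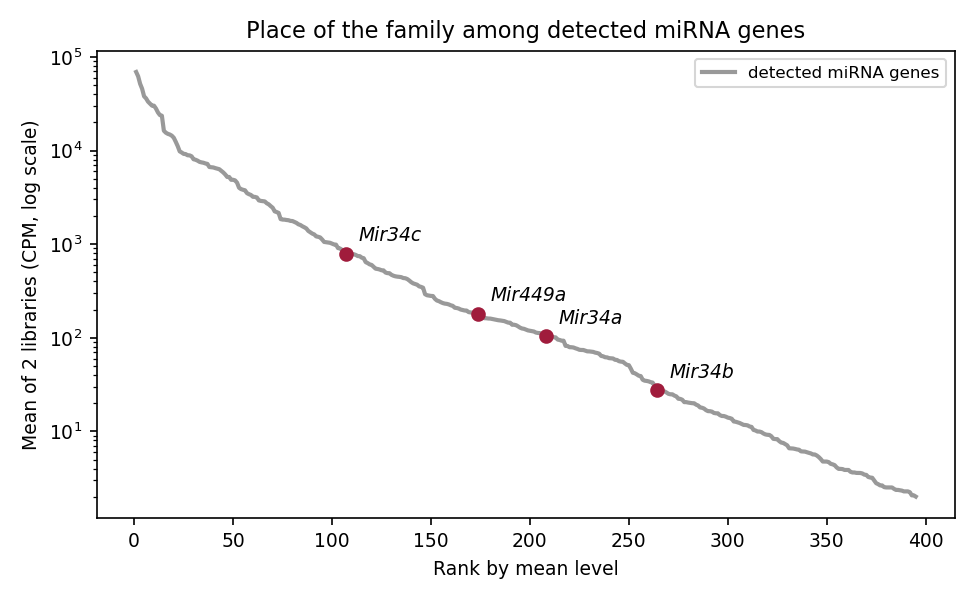
Mean CPM of the 395 detected miRNA genes (log scale) against their rank, with the 4 detected members marked. Mir34c stood at rank 107, Mir449a at 174, Mir34a at 208 and Mir34b at 264.

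The genes nearest to each member in level were taken as those directly above and below it, so their closeness follows from that choice. Mir34c stood between Mir300 (806 ± 87.3 CPM), a gene of the imprinted Dlk1-Dio3 region, and Mir137 (789 ± 6.96 CPM), which acts in neurons. Mir449a stood between Mir301b (181 ± 8.98 CPM) and Mir672 (171 ± 16.8 CPM). Mir34a stood between Mirlet7a-1 (104 ± 9.34 CPM) and Mir7b (103 ± 16.7 CPM). Mir34b stood between Mir1251 (30.8 ± 4.61 CPM) and Mir199a-1 (27.3 ± 4.77 CPM). Likeness here is in mean level over 2 libraries alone, and Mirlet7a-1 and Mir199a-1 shared sequence with copies that may lower their counts.

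The hairpins of the chromosome 9 pair are shown because these neighbours had the widest gap in level of all detected members. They are written 5′ to 3′ as RNA of the minus strand from RefSeq on GRCm38.p6, with the annotated 3p strand in capitals.
Mir34c, chr9:51103034-51103110: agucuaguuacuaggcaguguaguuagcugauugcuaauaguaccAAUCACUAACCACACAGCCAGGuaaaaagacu
Mir34b, chr9:51103562-51103645: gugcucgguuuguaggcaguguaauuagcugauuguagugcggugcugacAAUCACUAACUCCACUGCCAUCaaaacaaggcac

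Within the pair, Mir34c exceeded Mir34b 31.2-fold (exact binomial interval 25.8 to 38.1) in replicate 1 and 26.9-fold (23.2 to 31.3) in replicate 2, with a mean of 29.1 ± 3.07-fold (SD, n = 2). The hairpins were 77 and 84 bases long. Each count joins both arms of a hairpin, so which strand gave these reads was not resolved. Such gaps were found elsewhere too. Over 109 neighbouring pairs of detected miRNA genes on the same strand and at most 10000 bases apart, the median ratio between mates was 7.68-fold. Of these pairs, 33 had a wider gap than Mir34c and Mir34b and 75 a narrower one, and the higher gene was the same in both libraries for 106 of the 109. The pairs are not separate loci, since a gene with a neighbour on each side enters more than 1 pair. Many of the pairs come from the Dlk1-Dio3 region, which weighs on this place. Some of the pairs hold a gene that shares 20 bases with another counted gene, as 86 of the 395 detected genes do. Reads with several mapping places are left out, so counts of such genes may be lowered, and the effect on these gaps was not tested. Mir34b and Mir34c share no such stretch. The search was for identical bases, though, and the 5′ arms of their hairpins, printed above, are closely alike with mismatches. Whether reads of Mir34c were counted for Mir34b, or the reverse, was not tested.

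**Figure D3:**
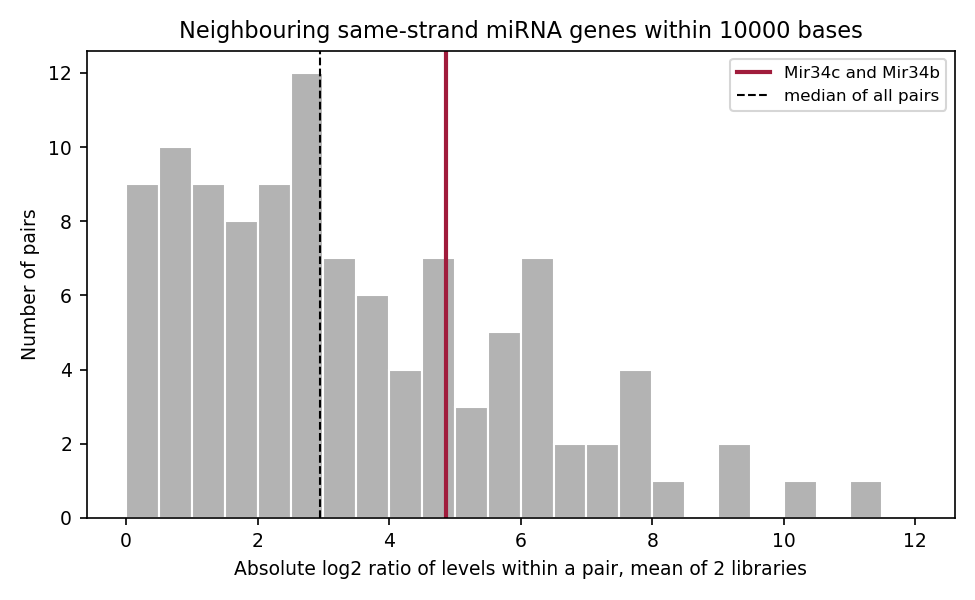
Number of neighbouring same-strand pairs of detected miRNA genes by the absolute log2 ratio of their levels, averaged over both libraries. The solid line marks Mir34c and Mir34b at 4.86 and the dashed line the median of the 109 pairs at 2.94.

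Within Cdc20b, Mir449a exceeded Mir449c 171-fold (73.1 to 529) in replicate 1 and 211-fold (89.96 to 650) in replicate 2. Its ratio over Mir449b, which rests on 1 and 2 counts, was 856 (153 to 33849) and 526 (145 to 4353). The lower bounds of all 4 ratios were above the ratio of Mir34c to Mir34b in either library. Because Mir449b and Mir449c were not detected, these pairs were not among the 109.

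Between the libraries, the 4 detected members differed by less than 2-fold, Mir449a least. On the log2 scale, replicate 1 over replicate 2, the ratio was -0.24 (exact binomial interval -0.30 to -0.17) for Mir34c, -0.32 (-0.50 to -0.15) for Mir34a and -0.45 (-0.80 to -0.10) for Mir34b. All 3 detected Mir34 genes had lower values in replicate 1, with intervals below 0. For Mir449a the ratio was 0.03 (-0.10 to 0.16). None of the 4 reached a 2-fold difference, beside 4.56% of the 395 detected genes that did. Counting intervals that left out 0 were common, at 54.9% of detected genes, and intervals that left out 0 with the higher value in replicate 2 were found for 28.6%. With 4 genes, the 3 members of that kind are given as values and read no further. The median absolute log2 ratio over detected genes was 0.23, and the 3 Mir34 genes lay above it, Mir34c only just. By absolute ratio, Mir34c stood at percentile 52.4 of the detected genes, Mir34a at 64.3, Mir34b at 75.4 and Mir449a at 10.6. Mir449b and Mir449c, with 1 to 5 counts, had ratios of -0.67 (-6.55 to 3.59) and 0.33 (-1.79 to 2.45). The coefficient of variation of 0.190 corresponds to an SD of 0.39 for such a log2 ratio. Of the 4 members, Mir34b alone lay beyond that SD.

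**Figure D4:**
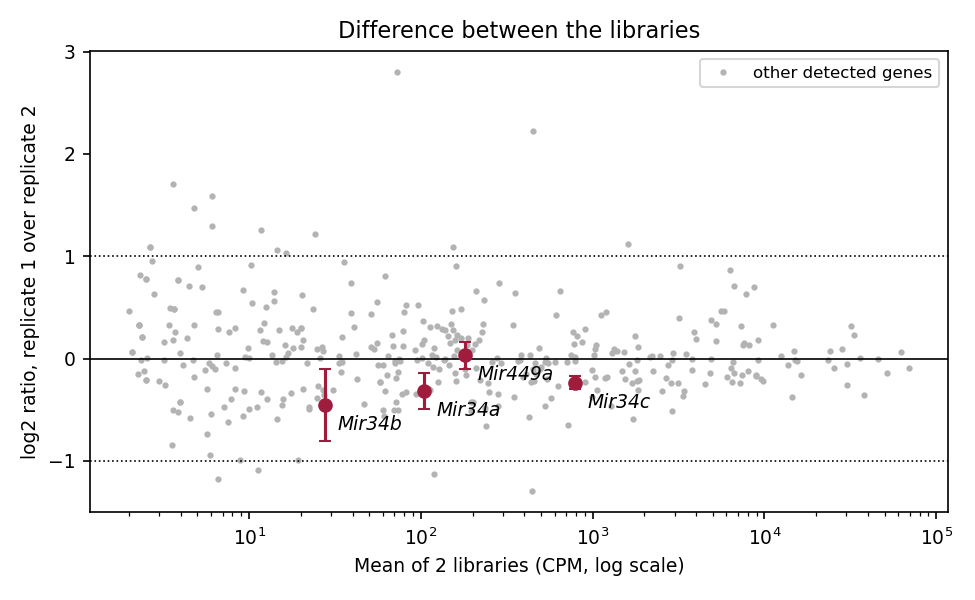
Log2 ratio of levels, replicate 1 over replicate 2, against mean CPM (log scale) for the 395 detected genes, with exact binomial 95% intervals for the 4 detected members and dotted lines at a 2-fold difference. The 4 members lay between -0.45 and 0.03, inside the dotted lines.

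The make-up of the family was similar in both libraries, with a slightly larger Mir449 share in replicate 1. The Mir34b and Mir34c locus gave 73.2% (exact Clopper-Pearson interval 71.9 to 74.4) of the family's reads in replicate 1 and 75.1% (74.1 to 76.1) in replicate 2. The Mir449 locus gave 17.8% (16.7 to 18.9) and 15.1% (14.3 to 15.97). On the log2 scale Mir34c over Mir449a was 2.00 in replicate 1 and 2.27 in replicate 2. No replicate test of this difference is possible with 1 library on each side.

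Other miRNA genes linked to p53 lay both above and below the Mir34 genes in this tissue. Of the 10 such genes that are not members, 5 had a higher mean level than Mir34c and 6 a higher one than Mir34a. The 8 of them that were detected had a median level of 1821 CPM, against 122 CPM over all detected genes. The list was chosen with earlier results of these data known, so this contrast describes the chosen genes only. Mir143, which is also known from smooth muscle, stood highest at 14425 ± 2629 CPM. Mir200c of epithelium stood at 4533 ± 552 CPM, Mir15a, which targets Bcl2, at 3810 ± 4.84 CPM and Mir107 at 1812 ± 199 CPM. Mir192 (76.0 ± 1.07 CPM) and Mir194-2 (63.4 ± 5.09 CPM), known from gut and liver, lay below Mir34a, and Mir194-1 and Mir215 were below the detection minimum. All 8 detected genes and the 3 detected Mir34 genes had higher values in replicate 2, beside 199 of the 395 detected genes, and 0 of the 11 differed 2-fold. Some differences were slight, as for Mir15a (3806 CPM in replicate 1 and 3813 in replicate 2) and Mir192 (75.2 and 76.7 CPM). Several of the 11 are neighbours on the same strand, such as Mir143 with Mir145a and Mir34b with Mir34c, and do not count as independent genes. The list holds genes of several tissues, and 4 of its members share sequence with a copy elsewhere.

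The family's share was small beside that of the epithelial miRNA genes, which are relevant because multiciliated cells are epithelial. The family held 0.103% of gene reads in replicate 1 and 0.118% in replicate 2. The 7 epithelial genes, which are 5 of the miR-200 family with Mir203 and Mir205, were all detected and held 3.08% and 3.58% in the same libraries, and the sensory genes Mir183, Mir96 and Mir182 held 3.14% and 2.95%. The 7 epithelial genes had a median log2 ratio of -0.22, replicate 1 over replicate 2, with lower values in replicate 1 for 6 of the 7, as the 3 detected Mir34 genes had. That direction was not particular to epithelium. It was found for 3 of 3 listed blood genes (median -0.34), 4 of 5 mesenchymal genes (median -0.13) and 2 of 3 sensory genes (median -0.03). The other direction was found for 5 of 6 detected neural genes (median 0.20) and for Mir126a of endothelium (0.09). Of all 395 detected genes, 199 had lower values in replicate 1 and 196 had higher ones. Whether the amount of epithelium had a part in the Mir34 values was not tested. In this bulk tissue, fewer cells of a type and less RNA per cell cannot be told apart, and the tables hold miRNA genes alone, so no messenger RNA marker of ciliated cells or of p53 activity was measured.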

How the data were processed

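The authors deposited, for each library, a table of raw read counts per miRNA gene on both strands, on 1 strand and on the other, with mm10 as the assembly and M4 as the GENCODE release, as the library description files state. Aligner, counter and trimming are not given in the sources used here. The column that held 96.8% and 96.7% of the reads on genes was taken as the own strand. Entries for unmapped (25.7% and 19.4% of reads), multiply mapped, unassigned and ambiguous reads stayed out of library sizes. GENCODE M21 on GRCm38 gave symbols for 1894 of 1973 rows. The pools are labelled as biological replicates.

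CPM, exact intervals and ranks were computed with Python 3.11.15 and scipy 1.17.1. The spread over the 395 genes with at least 10 counts in both libraries was fitted with edgeR 4.0.16 (intercept only, TMM factors of 0.998 and 1.002). The fit and the intervals were tested on simulated data, and the outcome of those tests is not given here. The data simulated for the intervals held counting error alone, so that test does not cover spread beyond it. DESeq2 1.42.0 gave alternative size factors. With 1 group there was no condition to test, and no p-value is given. Named genes are the members, the detected genes directly above and below each in level, and p53-linked genes of a list. Members and lists were chosen with earlier results of these data known.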

Additional observations from a re-analysis of the deposited data

How the results depend on the processing

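No paired analysis was possible because the labels give 1 group. TMM and DESeq2 scaling moved no level or library ratio of the 6 genes by more than its spread. With reads of both strands, Mir449a stood at 174 CPM, and its percentile was 54.7, against 56.2 with own-strand reads. The family's share ranged from 0.103% to 0.118% over single libraries. Percentiles depended on the genes compared. Mir34c, Mir449a, Mir34a and Mir34b stood at 73.2, 56.2, 47.6 and 33.4 among detected genes, at 86.4, 77.8, 73.5 and 66.3 among the 781 genes with any count, and at 61.7, 37.5, 25.3 and 5.05 among the 277 with at least 100 counts in both libraries. Without genes that share 20 bases with another, Mir34c stood at 70.9 and Mir449a at 53.1. Over single libraries the percentile ranged from 71.4 to 73.7 for Mir34c, from 56.5 to 57.0 for Mir449a and from 31.1 to 34.2 for Mir34b. The gap between Mir34c and Mir34b lay at the 69.7 percentile of pairs, at 71.6 to 73.4 over single libraries and at 73.8 among the 84 pairs within 2000 bases. Per base of hairpin, an alternative chosen after seeing the data, Mir449a over Mir449c was 7.83 on the log2 scale, against 7.57. Depth limits Mir449b and Mir449c, whose counts of 1 to 5 leave their order unresolved.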
